A study of Danio rerio with 10 samples.

Results

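Notochord cells were taken as the cells passing quality control that held at least 1 unique molecular identifier (UMI, a count of 1 captured RNA molecule) in at least 3 of the 6 genes col8a1a, emilin3a, loxl5b, col5a3a, noto and tbxta. This rule found 493 of 16837 cells in 10 zebrafish embryos, 175 of them in wildtype, 191 in dact1/2 mutants and 127 in gpc4 mutants. Single-cell RNA sequencing was run on 4 wildtype embryos, 3 dact1/2 mutants (dact1-/-;dact2-/-) and 3 gpc4 mutants (gpc4-/-), all of the Tubingen strain, with 1 droplet library per whole embryo. The labels give the 3 somite stage and the paper the 4 somite stage. Mutants were picked by their truncated body axis and were not genotyped. dact1 and dact2 encode adapters that bind Disheveled, and gpc4 encodes a cell-surface glypican of noncanonical Wnt signaling, so the study asks how the 2 kinds of short-axis mutant differ from wildtype and from each other.

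The notochord is the rod along the midline that stiffens the embryonic axis, and its precursor, the chordamesoderm, narrows and lengthens during convergent extension. Its cells secrete a sheath of collagens and other matrix proteins, and the notochord sends Hedgehog signals to the neighboring neural tube and muscle precursors. In zebrafish, tbxta and noto encode transcription factors that notochord formation requires, and noto is expressed in the precursors before they differentiate.

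The rule itself used the levels of its 6 genes, so these are given as a description. Members with 3 of the 6 genes (154 cells) had a median summed level of 390 CPM (counts scaled to a fixed library total of UMIs) and a median depth of 18122.5 UMIs, while cells with 2 (614 cells, not members) had 281 CPM and 12816.5 UMIs. The 200 members with 5 of the genes reached 7745 CPM at 8162.5 UMIs. The 21 members with all 6 were the deepest, at 25822 UMIs and 1456 CPM, and 61.9% of them held at least 3 markers of another cell type.

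Fixed lists of markers of 10 other cell types were counted in each member. At least 3 markers of another type were found in 231 of the 493 members (46.9%), most often of epidermis (163 members) or neural cells (163), and none held 3 markers of dorsal forerunner cells. These 231 cells had a median of 29285 UMIs, a median rule-gene level of 415 CPM and 82.4% of all UMIs of the members. The other 262 members had 4678.5 UMIs and 6204 CPM. These are levels of the genes that chose the cells and are no check of the label. Deep cells hold more markers of every kind. Of cells with none of the 6 genes, 50.0% also met the criterion, but these include cells of the 10 types themselves. That share is therefore no measure of how often a notochord cell would meet it. The results are therefore given for all 493 members and for the 262, called cells without other markers here. No doublet caller was run.

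**Figure D1:**
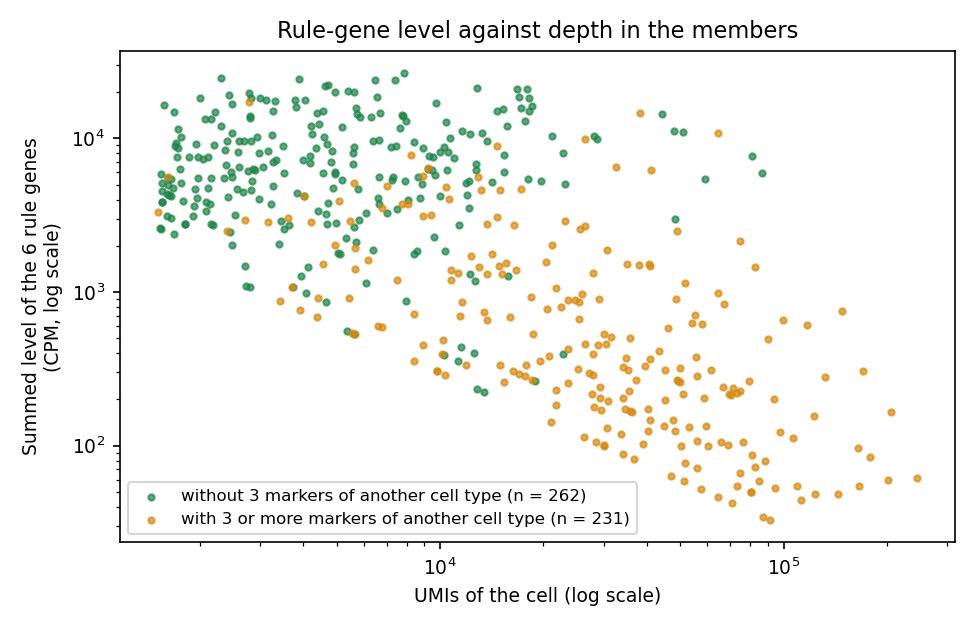
Summed level of the 6 rule genes (CPM, log scale) against the UMIs of the cell (log scale), 1 point per member, colored by whether the cell held 3 or more markers of another cell type. The 262 cells without them lie mostly at high levels and low depth (medians 6204 CPM and 4678.5 UMIs), and the 231 with them at low levels and high depth (415 CPM and 29285 UMIs).

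In the cells without other markers, col8a1a ranged over the 10 embryos from 1270 to 4514 CPM (median 2939), against a median of 17.4 CPM in all cells that were not members. The elastin-associated matrix gene emilin3a had a median of 1128 CPM, the lysyl oxidase gene loxl5b 1211 CPM and the fibrillar collagen gene col5a3a 2242 CPM. tbxta had 934 CPM, and noto had 163 CPM, from 5.63 to 485 CPM, the widest of the 6 as a ratio of highest to lowest and the narrowest in CPM. Each had a lower median among non-members, where tbxta at 26.8 CPM was the highest. In epidermis-like cells, 12.6% held a UMI of col5a3a and 5.30% of col8a1a at a median depth of 6662 UMIs. Of the 262 cells, at 4678.5 UMIs, 69.8% and 90.8% did, and of all non-members 4.87% and 6.53%. With each cell reduced to the same number of UMIs, 4.31% of epidermis-like cells and 1.28% of non-members held col5a3a. For col8a1a these shares were 2.15% and 2.45%. The epidermis-like cells are therefore no background for col5a3a, which was found in them more often than in non-members at large. Both genes are rule genes and the epidermis-like cells exclude all members, so part of the gap to the 262 cells is set by the rule. The gene outside the rule that defines the notochord as a Hedgehog source, shha, was detected in 75.2% of the 262 cells and in 3.15% of those epidermis-like cells.

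Genes that the rule did not use shared the same pattern. The largest mean difference from all other cells belonged to FQ323119.1, with a median of 2392 CPM in the 262 cells and 4.53 CPM elsewhere. The major collagen gene col2a1a had a median of 7476 CPM against 56.8, and the collagen IX genes col9a3, col9a2 and col9a1b had 812, 1008 and 624 CPM against 5.75, 5.64 and 2.82. Enzymes that modify collagen stood beside them. p4ha1b, a prolyl hydroxylase, had 2805 CPM against 31.3, and plod1a, a lysyl hydroxylase, had 2367 CPM against 40.6. The calymmin gene cmn, which encodes a matrix protein of the notochord sheath in zebrafish, had 656 CPM against 0.421. The T-box gene tbx3b had 359 CPM against 1.16. The 20 genes with the largest mean differences included the rule genes emilin3a, loxl5b, col5a3a and col8a1a. All 20 were higher in the notochord cells of all 10 embryos. They were ranked by the mean over these same embryos, so this is no separate support. The levels are descriptions of cells chosen by genes expressed with them, and no test was made. Among neighbors of the axis, 140 floor plate-like cells also held col8a1a at 233 CPM, col2a1a at 211 CPM and shha at 118 CPM. ntd5 reached 351 CPM in 444 adaxial-like cells.

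Whether noto was detected divided the 262 cells further. The 56 cells with a noto UMI had a median of 6498 UMIs, the 206 without had 4072. As noto is a rule gene and detection grows with depth, these are pooled levels without a test. The cells with noto held more of the signaling genes fgf4 (288 against 5.54 CPM), fgf8a (169 against 2.46), fgf3 (135 against 1.85) and admp (290 against 7.38), the last a BMP-family ligand of the organizer. The cell-cycle inhibitor gene cdkn1ca (593 against 32.6 CPM), the transcription factor genes sall1a (218 against 6.15) and sp5l (239 against 11.7), and twist2 (927 against 99.6) were also higher. Genes lower in the cells with noto included several of the sheath. col2a1a had 726 CPM against 8441, col9a2 41.1 against 1119 and cmn 16.9 against 810. The largest difference was that of lgals1l1, a galectin gene, with 9.68 against 947 CPM, and the transporter gene slc38a8b had 16.9 against 407. col5a3a, a rule gene, had 62.9 against 2446 CPM. A cell without noto had to hold 3 of the other 5 rule genes and a cell with noto only 2, so part of the lower levels of col5a3a and of matrix genes expressed with it is fixed by the rule. tbxta differed little, at 1033 and 976 CPM. Of the 8 embryos with at least 3 cells with noto, all 8 had higher fgf4, cdkn1ca and twist2 in them. All 8 had lower col2a1a, cmn and col9a2, and 7 had higher admp and fgf8a. fgf4, admp, fgf8a, cdkn1ca, cmn and col9a2 were ranked by the pooled levels of these same cells, so the counts are no separate support. Cells with noto held on average 0.714 of the 6 tail bud and presomitic mesoderm markers, the others 0.243. fgf8a is 1 of these markers, and the cells with noto were deeper. All 262 cells were chosen to hold fewer than 3 of them, so the averages are a description only.

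**Figure D2:**
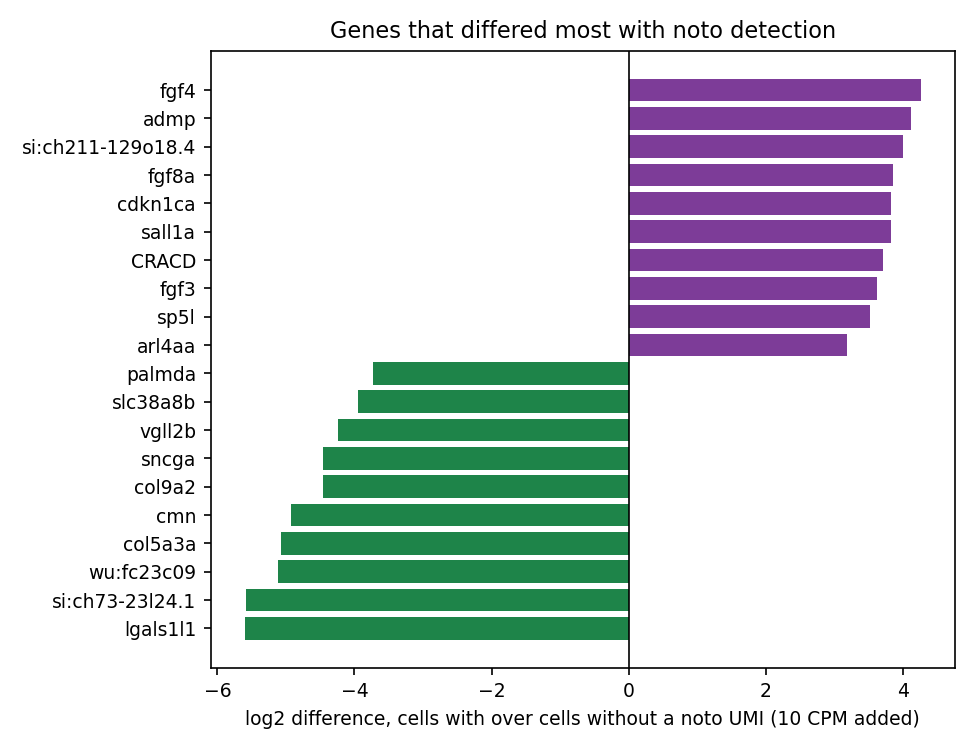
The 10 genes highest and the 10 lowest in the 56 cells with a noto UMI relative to the 206 without, among the 262 cells, as the log2 difference of pooled CPM after adding 10 CPM. The signaling genes fgf4 (4.26), admp (4.11) and fgf8a (3.85) are at the high end, and lgals1l1 (-5.60), col5a3a (-5.07), cmn (-4.93) and col9a2 (-4.46) are among the low ones.

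Among the 262, cells with noto made up 40.0% (12 cells) in the first wildtype embryo, against 9.38%, 15.0% and 4.17% (3, 3 and 1 cells) in the other 3. The dact1/2 mutants had 32.4%, 23.9% and 9.52% (12, 11 and 2 cells), the gpc4 mutants 23.1%, 35.3% and 13.6% (3, 6 and 3 cells). Both mutant groups overlapped with wildtype. In these cells without other markers, wildtype replicate 1 had a median depth of 9895 UMIs, and replicates 2 to 4 had 3394.5, 4095 and 5386.5. The part of depth in these shares was not tested. Wildtype replicate 1 stood apart from the other 3 in the genes that went with noto, with cmn at 95.5 CPM against 903 to 1046, col9a2 at 88.4 against 1166 to 2015, and lgals1l1 at 21.2 against 799 to 1733. It also had the heat shock gene hspb1 at 6402 CPM against 467 to 1013. The heatmaps of the study left this embryo out, so each comparison below was fitted with wildtype replicates 2, 3 and 4 and again with all 4. The libraries held between 976 and 2655 cells and between 10388568 and 26475500 UMIs, of which the notochord members took 364473 to 2739218 and the cells without other markers 87391 to 346923. At most 4 cell barcodes were shared between any pair of libraries.

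The share of notochord cells overlapped between the genotypes over all members. Members made up 4.65%, 3.91%, 1.36% and 4.71% of the cells of wildtype replicates 1 to 4, 3.88%, 2.64% and 2.40% in the dact1/2 mutants, and 4.12%, 1.96% and 2.09% in the gpc4 mutants. The means were 3.66% ± 1.58 (SD, n = 4), 2.97% ± 0.79 (SD, n = 3) and 2.72% ± 1.21 (SD, n = 3). Neither difference from wildtype passed the test (exact permutation test, two-sided, p = 0.457 for both, adjusted p = 0.549 over 6 tests, smallest possible p = 0.0286). With each cell thinned to 1500 UMIs before the rule was applied, the means were 2.15%, 1.52% and 0.965% (exact p = 0.0857 for gpc4 and 0.229 for dact1/2 mutants against wildtype). After thinning, the dact1/2 mutants lay 0.56 percentage points above the gpc4 mutants without overlap (1.45% to 1.58% against 0.793% to 1.23%, exact p = 0.1, the smallest that 3 against 3 allows). Unthinned, the mutants differed from each other by 0.25 percentage points (exact p = 0.6, smallest possible p = 0.1), and this difference turned to -0.20, -0.14 and -0.07 when dact1/2 replicate 1, gpc4 replicate 2 or gpc4 replicate 3 was left out.

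Without the cells that held other markers, the shares were 2.54%, 2.84%, 0.904% and 2.46% in wildtype. The dact1/2 mutants had 1.73%, 1.73% and 1.33%, the gpc4 mutants 1.03%, 0.923% and 1.18%. Wildtype replicate 3 lay below every mutant, and every other wildtype embryo lay above every mutant. The gpc4 mutants were 1.14 percentage points below wildtype (exact p = 0.143, adjusted p = 0.429), the dact1/2 mutants 0.59 below (exact p = 0.314, adjusted p = 0.549, a difference of -1.02 without wildtype replicate 3 and -0.37 without wildtype replicate 2), and the 2 mutants did not overlap (difference 0.55, exact p = 0.1, the smallest that 3 against 3 allows, adjusted p = 0.429). Wildtype replicate 3 also had the lowest median depth of all cells, 4229.5 UMIs, against 8493 to 11255 in the other wildtype embryos. Its part in the shares was not tested. In whole dissociated embryos, fewer notochord cells and fewer notochord cells surviving into droplets cannot be told apart.

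**Figure D3:**
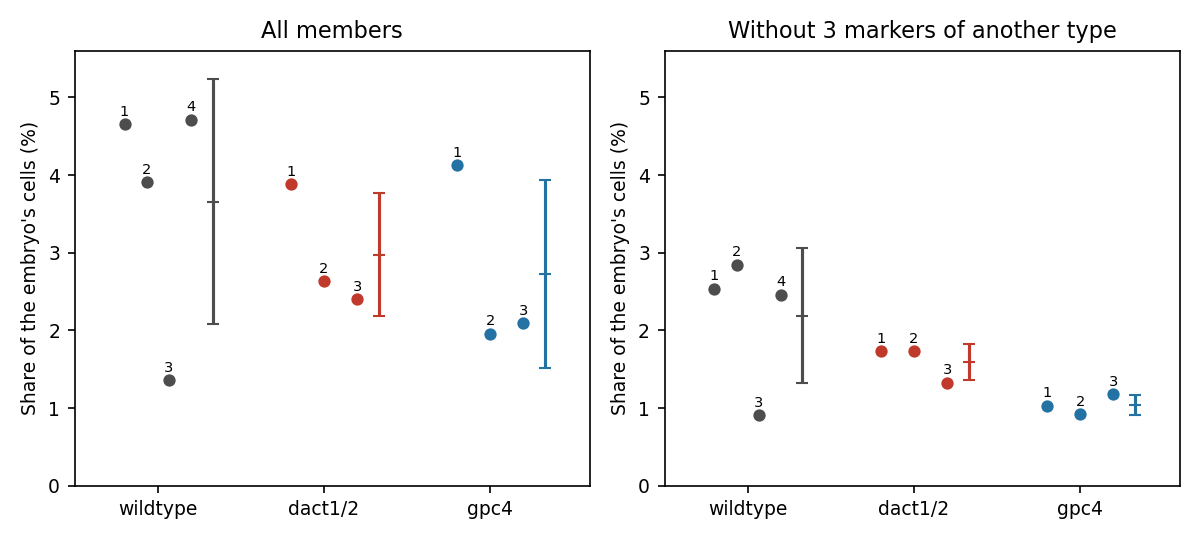
Share of each embryo's cells (%) that were notochord cells, for all 493 members (left) and for the 262 without 3 markers of another type (right). Points are embryos, numbered by replicate, and bars give the mean and SD of each genotype. The genotypes overlap on the left, while on the right the 3 gpc4 mutants (0.923% to 1.18%) lie below the 3 dact1/2 mutants (1.33% to 1.73%) and wildtype spans 0.904% to 2.84%.

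The targeted genes were examined first. In the 262 cells, gpc4 had 113, 47.2, 81.4 and 16.9 CPM in wildtype, 49.0, 82.0 and 57.3 CPM in dact1/2 mutants, and 9.55, 0 and 5.31 CPM in gpc4 mutants. The gpc4 mutants lay below all others, on 3 UMIs in all, too few for the filter of the test. In all 493 members gpc4 was lower by a log2 fold change of -1.76 (SE 0.34), which did not pass the adjustment (adjusted p = 0.147), while in all other cells of these embryos it was called at -1.73 (adjusted p = 5.8e-04). dact2 had 191, 58.1, 59.2 and 16.9 CPM in wildtype and 72.1, 117 and 57.3 CPM in dact1/2 mutants, which overlapped. dact1 had 3 UMIs in wildtype and 1 in the dact1/2 mutants, too few to compare. The dact1 and dact2 alleles are small deletions, and counts of 3′ tags outside them do not check the genotype.

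In all 493 members, few genes differed between the genotypes. Between dact1/2 mutants and wildtype, 5 of 7059 genes were called (0.0708%) (adjusted p below 0.1, with a log2 fold change beyond 0.58 either way), and between gpc4 mutants and wildtype 3 of 6503 (0.0461%). With all 4 wildtype embryos these became 1 (0.0134%) and 2 (0.0271%). pcp4l1 rose in dact1/2 mutants. It had at most 29.8 CPM in wildtype replicates 1 to 4 and 59.5, 117 and 113 CPM in the mutants (log2 fold change 2.02, SE 0.30, adjusted p = 0.0149), and it was the gene still called with all 4. The muscle gene klhl41b and si:ch211-129o18.4 rose too, and zgc:113232 and si:dkey-9c18.3 fell. In gpc4 mutants the lysosomal gene aga rose from 4.13 to 12.7 CPM in wildtype replicates 2 to 4 to 163, 110 and 93.3 CPM (log2 fold change 4.03, SE 0.43, adjusted p = 0.00674). qdpra, a pteridine reductase gene, also rose, and CR847906.1 fell. These 3 genes were called in all other cells as well, where 2.62% of genes were called, and 2 of the 5 dact1/2 genes were, where 2.18% were.

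In the 262 cells without other markers, the dact1/2 mutants differed from wildtype replicates 2 to 4 at 65 of 2715 genes (2.39%), 25 higher (0.921%) and 40 lower (1.47%). The 65 included col5a3a, a gene of the rule that chose the cells. The count became 1 (0.0311%), capn8, with all 4 wildtype embryos. Of the 65 genes, 53 had a level in wildtype replicate 1 nearer to the mutant mean than to that of the other wildtype embryos. The 65 were chosen because wildtype replicates 2 to 4 lay far from the mutants, with replicate 1 outside the fit. That choice can by itself bring replicate 1 nearer to the mutant mean. The share over all 2715 genes was not computed, so the 53 are no measure of likeness. Called genes were also set beside the levels in cells with and without noto. Of the 25 higher genes, 22 were higher in cells with noto, and of the 40 lower genes, 37 were lower in them, beside 1396 higher and 1319 lower among all 2715. The levels with and without noto were pooled over these same 262 cells, and the embryos contributed unequally to the 2 pools. A gene that differs between the genotypes can therefore differ between the pools as well, and these counts are no independent check of the calls. The part of the share of cells with noto in the calls was not tested.

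capn8, a classical calpain protease gene, was the exception that did not depend on wildtype replicate 1. It had no UMI in wildtype replicates 2, 3 and 4 and 1 UMI (3.54 CPM) in replicate 1, and stood at 57.6, 99.3 and 105 CPM in the dact1/2 mutants and 0, 0 and 5.31 CPM in the gpc4 mutants. All 3 dact1/2 mutants lay above all other embryos. Against a floor of 3 counts over wildtype replicates 2 to 4, the level was at least 15.5-fold higher (adjusted p = 0.00114, and 0.0143 with all 4 wildtype embryos). capn8 passed the filter of the test only through the dact1/2 mutants, where it is high. The paper had also reported capn8 as overexpressed in dact1/2 mutants from these same data, so the call is no independent support. In all 493 members the log2 fold change was 1.99 (SE 0.41), not called (adjusted p = 0.144), and in all other cells 1.95 (called, adjusted p = 0.00515). A capn8 UMI was found in 31.1% of epidermis-like cells, 19.9% of all members and 8.78% of the 262 cells, and with each cell thinned to 1500 UMIs in 9.33%, 3.65% and 5.73%.

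Among the transcription factors of the axis, cdx4 and sox11a rose in dact1/2 mutants. cdx4, a caudal homeobox gene of the posterior body, had 265, 90.8, 111 and 39.4 CPM in wildtype replicates 1 to 4 and 340, 311 and 363 CPM in the mutants (log2 fold change 2.05, SE 0.30, adjusted p = 0.00114). All 3 mutants lay above all 4 wildtype embryos, replicate 1 being the nearest. With all 4 in the fit the log2 fold change was 1.43 and not called (adjusted p = 0.894). sox11a was higher by 1.33 (adjusted p = 0.0435). Of the 33 genes of this list 8 were tested, with these 2 called. The median log2 fold change of the 8 was 0.81, beside 0.01 over all genes. A gene low in wildtype passes the filter of the test only where the mutants are high, so the filter can raise this median. In all members, 23 of the 33 were tested, none was called and the median was 0.13. The T-box gene tbx3b, which was in none of the lists, fell by 0.85 on the log2 scale in the cells without other markers (adjusted p = 0.0452).

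Genes of the Notch pathway included the most significant call. hes6, a transcription factor gene of the Hes family, had 106, 10.9, 22.2 and 22.5 CPM in wildtype and 147, 164 and 134 CPM in dact1/2 mutants (log2 fold change 3.07 against replicates 2 to 4, SE 0.39, adjusted p = 6.1e-04). In gpc4 mutants it had 43.0, 275 and 101 CPM. Again the dact1/2 mutants lay above all wildtype embryos with replicate 1 nearest, and the value fell to 1.85 (adjusted p = 0.881) with all 4. The receptor gene notch1a was higher by 1.59 (adjusted p = 0.0545). These were 2 of 10 tested genes of the list, beside 2.39% of all genes called. The median of the list was 0.16. As above, a gene as low in wildtype as hes6 can be tested only where the mutants are high. In members whose rule genes reached 1000 CPM, a set chosen after seeing the data, hes6 was at 0.23 and cdx4 at 0.45, neither called.

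Of the 22 tested genes of the sheath matrix list outside the rule, 2 fell in dact1/2 mutants, beside 2.39% of all genes called, and neither was called with all 4 wildtype embryos. col9a1b had 477, 875, 770 and 889 CPM in wildtype and 380, 397 and 420 CPM in dact1/2 mutants (log2 fold change -1.10, SE 0.19, adjusted p = 0.00518), with all 3 mutants below every wildtype embryo. col2a1a had 2150, 9376, 8359 and 11005 CPM in wildtype and 4990, 6550 and 6927 CPM in the mutants (log2 fold change -0.66, SE 0.17, adjusted p = 0.0679), so wildtype replicate 1 lay below the mutants. Of the 22 genes 8 were above and 14 below 0, and the median was -0.16. The list overlaps with genes that earlier results of these data had shown. cmn (adjusted p = 0.0219) and the chondromodulin gene cnmd (log2 fold change -1.06, adjusted p = 0.0182) also fell. Of 55 tested genes of collagen modification and secretion none was called, 42 lay below 0 and the median was -0.18. The chaperone of collagen serpinh1b, for instance, was at -0.43 (adjusted p = 0.304) and plod1a at 0.20 (adjusted p = 0.689). In all members the medians were -0.09 over 31 sheath genes and -0.08 over 59 of collagen modification and secretion, with none called.

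In the members with rule genes at 1000 CPM or more, 240 of 3838 genes were called (6.25%), and 50 of the 65 were among them. They included col9a1b (-1.47), col2a1a (-0.99), cmn (-1.22) and cnmd (-1.42), but not hes6 or cdx4. This set is cut on the level of the sheath genes col5a3a and col8a1a themselves, among others, and col5a3a was 1 of the 50.

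The remaining lists held few calls in the 262 cells, where 2.39% of all genes were called in dact1/2 mutants. In the vacuole and caveola list, 1 of 12 tested genes was called in dact1/2 mutants. It was slc38a8b, an amino acid transporter gene, with 7.07, 501, 933 and 523 CPM in wildtype and 334, 190 and 229 CPM in the mutants (log2 fold change -1.34, adjusted p = 0.0239). The list's median was -0.37. Among secreted signals and antagonists, nog1, a BMP antagonist gene, was called higher (1.92, adjusted p = 0.0586) out of 9 tested, with a median of -0.22. In all members 29 genes of this list were tested, 19 above and 10 below 0, with none called and a median of 0.24. In the 262 cells shha was at -0.50 (adjusted p = 0.267) and was not called. In the cell cycle list, the centromere gene cenpf (2.25, adjusted p = 0.0286) and cdkn1ca (1.51, adjusted p = 0.0823) were called out of 24, with a median of 0.46. With all 4 wildtype embryos cdkn1ca turned to -0.23. Only these 24 of the 50 cell cycle genes passed the filter, which can shift the median. In all members 49 passed, with none called and a median of 0.07. In the stress and heat shock list hspb1 was called out of 15 in the 262 cells. It had 6402 CPM in wildtype replicate 1, 467 to 1013 CPM in the others and 2119, 1481 and 1452 CPM in the mutants, and its log2 fold change turned from 1.07 to -0.26 with all 4. None was called among 3 tested Hedgehog response genes (median 0.53), 19 of noncanonical Wnt and planar cell polarity (0.05) and 26 of cytoskeleton and adhesion (0.08). wnt11f2, the ligand of the noncanonical pathway in axis extension, was at -0.22 (adjusted p = 0.788).

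In gpc4 mutants, 8 of 2447 genes were called in the 262 cells (0.327%), 4 in each direction (0.163% each), and 1 (0.0373%), aga, with all 4 wildtype embryos. aga, which encodes aspartylglucosaminidase, had 3.54, 0, 0 and 0 CPM in wildtype, 5.76, 13.0 and 0 CPM in dact1/2 mutants and 85.9, 91.5 and 69.0 CPM in gpc4 mutants. All 3 gpc4 mutants lay above the other 7 embryos. The level was at least 15.8-fold higher against a floor of 3 counts over wildtype replicates 2 to 4 (adjusted p = 0.00813, and 0.0207 with all 4). aga passed the filter of the test only through the gpc4 mutants, where it is high. The gene was also named from earlier results of these data, so the call is no independent support. It was likewise called in all other cells, at a log2 fold change of 3.57 (adjusted p = 1.6e-05).

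The LIM domain gene fhl1b had 35.4, 109, 104 and 84.4 CPM in wildtype and 492, 217 and 303 CPM in gpc4 mutants (log2 fold change 1.78, SE 0.32, adjusted p = 0.0221), with all 3 mutants above all 4 wildtype embryos. zgc:92242 (1.84, adjusted p = 0.0221) and hspb1 (1.26, adjusted p = 0.0543) rose too, hspb1 turning to -0.09 with all 4. The zinc transporter gene slc39a13 fell, from 334, 341 and 214 CPM in wildtype replicates 2 to 4 to 71.6, 68.7 and 58.4 CPM (log2 fold change -2.19, SE 0.32, adjusted p = 0.00754), and replicate 1 was at 74.3 CPM. tbx3b fell by 1.43 on the log2 scale (adjusted p = 0.0693), and exosc6 and CT583728.24 were also lower. Of the 8 genes 5 were called in dact1/2 mutants as well, and the 2 comparisons share the wildtype embryos. In the lists, hspb1 was the 1 call, beside 0.327% of all genes called. The sheath matrix had a median of -0.30 over 21 genes with 17 below 0, collagen modification and secretion -0.19 over 55 with 38 below 0, the cell cycle 0.43 over 23 with 21 above 0, and secreted signals -0.61 over 6, all below 0, beside -0.01 over all 2447 genes. The BMP antagonist gene nog2 was at -1.11 (adjusted p = 0.132) and shha at -0.61 (adjusted p = 0.470). The single Hedgehog response gene tested was at -0.05. The axial transcription factors had a median of 0.91 over 6 genes and the vacuole and caveola list 0.00 over 12. The Notch pathway had 0.08 over 8, noncanonical Wnt -0.13 over 16, cytoskeleton and adhesion 0.16 over 25, and stress 0.16 over 12. The filter can raise the median of the axial transcription factors here as well. In all members, 23 genes of that list were tested, none was called and their median was 0.16. Other medians moved as well in all members, where no gene of a list was called. Secreted signals were at 0.15 over 26 genes, 15 above and 11 below 0. The sheath matrix was at -0.16 over 30 genes. Collagen modification and secretion was at -0.04 over 58 and the cell cycle at 0.14 over 49.

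**Figure D4:**
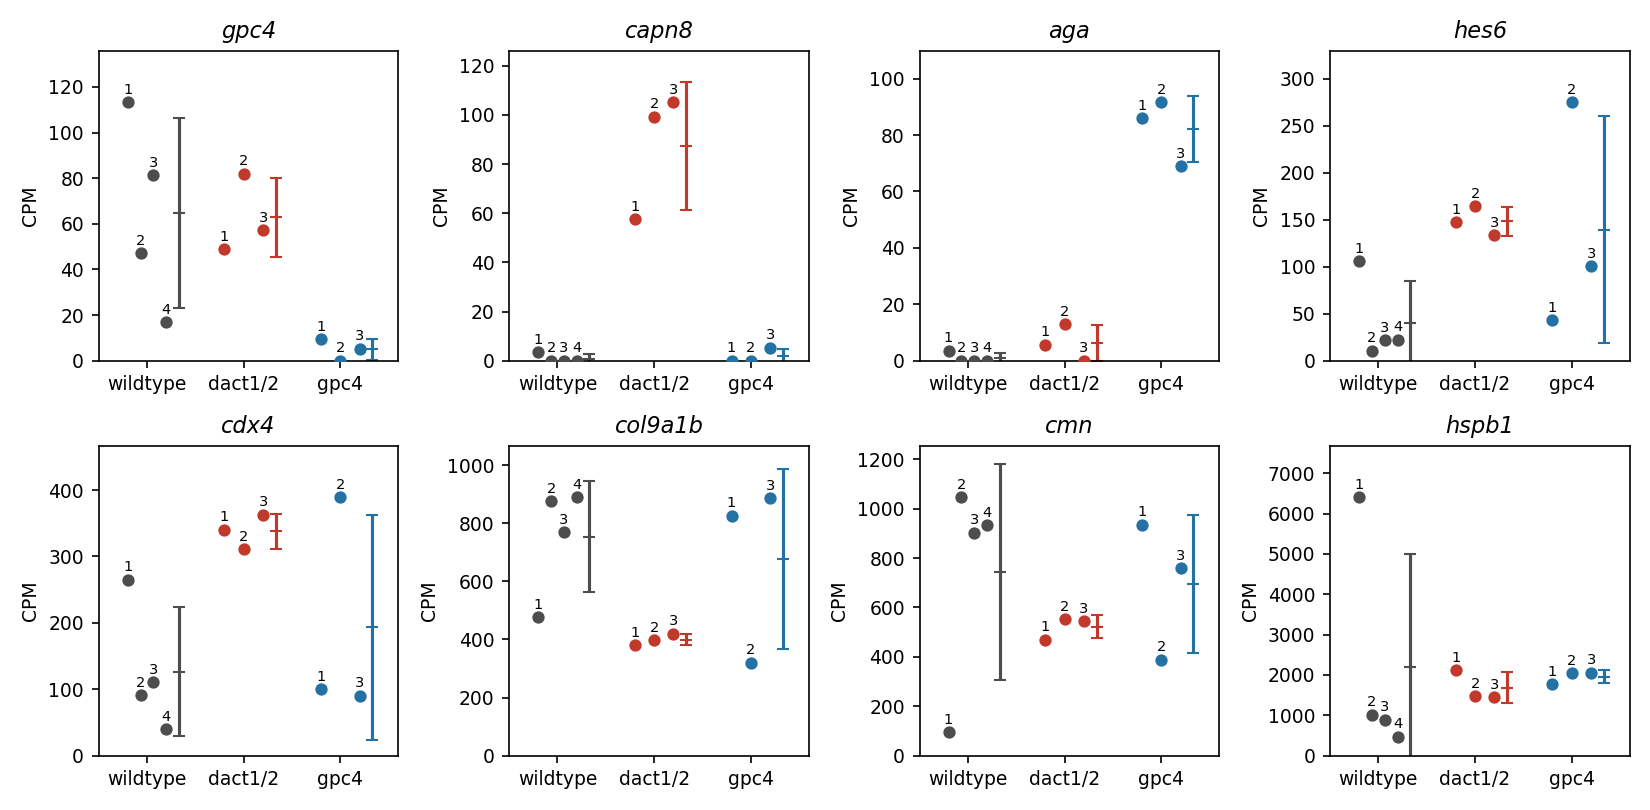
Level (CPM) of 8 genes in the notochord cells without 3 markers of another type, 1 point per embryo, numbered by replicate, with the mean and SD of each genotype over all its embryos (ends of bars below 0 are not drawn). gpc4 is lowest in gpc4 mutants (0 to 9.55), capn8 is high only in dact1/2 mutants (57.6 to 105) and aga only in gpc4 mutants (69.0 to 91.5), while wildtype replicate 1 lies apart from the other wildtype embryos for hes6, cmn and hspb1.

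The mutants were also set against each other. In all 493 members 4 of 5992 genes were called (0.0668%), aga and qdpra lower and DHRS11 and the myosin light chain gene myl13 higher in dact1/2 mutants, and in the 262 cells 5 of 2649 (0.189%). These fits took the embryos as unpaired. With the replicate number as a block, which would pair them, the counts were 21 and 13. Of the 5 called without the block, capn8 was higher in dact1/2 mutants by 4.94 (SE 0.80, adjusted p = 0.0512). aga was lower (log2 fold change -3.36, SE 0.61, adjusted p = 0.0661). DHRS11, a dehydrogenase gene, had 72.1, 56.1 and 76.4 CPM in dact1/2 mutants, 4.77, 0 and 5.31 CPM in gpc4 mutants and 14.1, 32.7, 96.3 and 33.8 CPM in wildtype (log2 fold change 3.84, SE 0.71, adjusted p = 0.0661). In the 262 cells, capn8 and DHRS11 had few or no UMIs in the gpc4 mutants, and aga few or none in the dact1/2 mutants. Each passed the filter of the test only through the mutant where it is high, so the sizes of these fold changes are no measure. mt-co3 was higher and zgc:92242 lower. In a fit of all 10 embryos 1 gene of the 493 members, aga, and none of the 262 cells was called by edgeR. There 123 of 3116 genes had an unadjusted p under 0.05, and DESeq2 called 5 in the fit of the mutants alone.

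**Figure D5:**
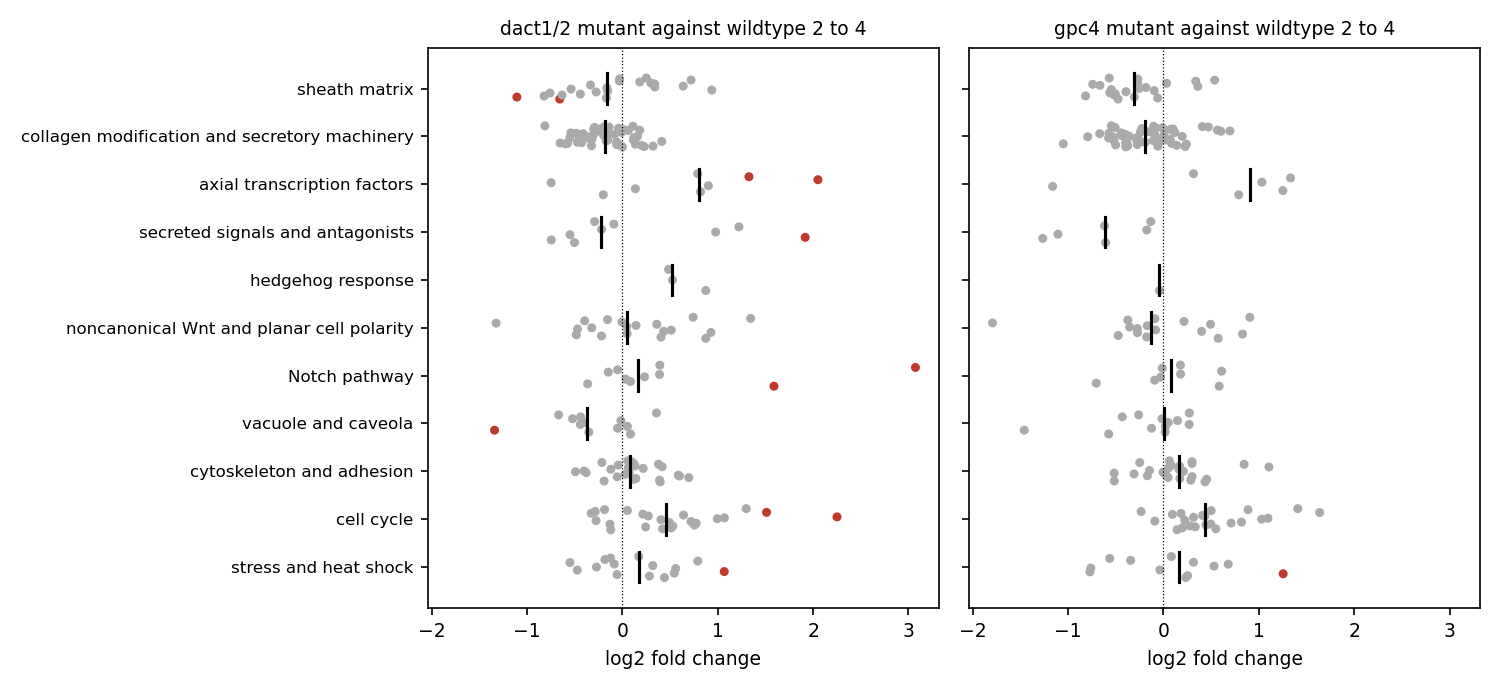
Log2 fold changes in the notochord cells without 3 markers of another type for the tested genes of 11 lists, dact1/2 mutants (left) and gpc4 mutants (right) against wildtype replicates 2 to 4. Red points are called genes, gray points are not, and black lines mark the median of a list. The sheath matrix medians are -0.16 and -0.30 and those of the cell cycle 0.46 and 0.43, with few single genes called.

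Whether a difference was particular to the notochord was tested as an interaction between genotype and cells, with all other cells of the same embryos as the reference. In the 262 cells, the dact1/2 difference departed from that in other cells at 31 of 2715 genes (1.14%), 15 higher (0.552%) and 16 lower (0.589%), and at 3 of 3214 (0.0933%) with all 4 wildtype embryos. Of the 31, 23 were also called within the notochord cells, beside 2.39% of all 2715 genes. Both tests use the same sums over the notochord cells of the same embryos, so this overlap is no separate support. hes6 (interaction 3.16, adjusted p = 0.00202) and cdx4 (1.82, adjusted p = 0.0201) were called. As above, hes6 was low in wildtype replicates 2 to 4 and could be tested only where the mutants are high. Within the notochord cells, neither gene was called with all 4 wildtype embryos or in the members whose rule genes reached 1000 CPM. In all other cells hes6 had 227, 204 and 253 CPM in wildtype replicates 2 to 4 and 221, 184 and 273 CPM in dact1/2 mutants, which overlapped. The matrix genes col2a1a (-1.11, adjusted p = 0.0488) and col9a1b (-1.91, adjusted p = 0.0645), p4ha1b (-1.03), serpinh1b (-0.69) and the growth factor gene igf2a (-2.09) were lower. With all 4 wildtype embryos the 3 called genes were all higher, so none of these lower genes was called there. capn8 was called on counts of 0 in wildtype, so its size is no measure. In all 493 members, no gene was called by edgeR for dact1/2 (196 of 7059 had an unadjusted p under 0.05).

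For gpc4 mutants, no interaction was called in the 262 cells (205 of 2447 genes had an unadjusted p under 0.05). In all 493 members 11 of 6503 genes were called (0.169%), all lower, and 11 (0.149%) with all 4 wildtype embryos. Among them were the keratin genes krt99, krt92 and krt5, the annexin gene anxa1c and the muscle troponin gene tnni2b.1, of which krt5 was not called with all 4. krt99 had 195, 68.0 and 24.7 CPM in all other cells of gpc4 mutants against 25.3, 23.1 and 44.5 in wildtype replicates 2 to 4, and 35.9, 13.6 and 5.49 CPM in the members against 27.3 to 66.8. Without gpc4 replicate 1 no gene was called, and without replicate 3 120 were. In gpc4 replicate 1, 67.3% of members held at least 3 epidermis markers, in replicates 2 and 3 25.0% and 33.3%, and in wildtype replicates 2 to 4 22.7%, 16.7% and 28.3%. The 5 genes named had too few UMIs in the 262 cells to be tested there, and the part of these cells in the 11 calls was not tested.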

How the data were processed

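The authors aligned reads to GRCz11 with Cell Ranger 6.1.0 and deposited UMI counts per gene and droplet for 10 libraries, without normalization. Cells with at least 1500 UMIs, 750 genes and under 5% mitochondrial UMIs were kept. The members, gene lists and naming rule were chosen with earlier results of these data known. UMIs were summed per embryo, the replicate, and tested by quasi-likelihood in edgeR 4.0.16 (with R 4.3.3), using TMM and filterByExpr, with Benjamini-Hochberg adjustment over all genes tested. This gave every adjusted p of a gene, and calls needed an adjusted p below 0.1 with a log2 fold change beyond 0.58. DESeq2 1.42.0 was an alternative. Named genes were the rule and targeted genes, capn8 and 5 genes known from other lineages (aga, gpx1b and hspb1 among them), up to 10 called genes per direction (5 for interactions) with at least 20 UMIs and no overlap, called list genes, the 4 highest of each list, the 20 that differed most from other cells and 10 per direction by noto. cnmd, and hes6 and cmn in some places, were named after their values were seen. Shares were compared by exact permutation tests in scipy. Same-numbered mutants of the 2 kinds tended to deviate together (correlations 0.60, 0.19 and 0.24 in all members, 0.18, 0.24 and 0.20 in the 262 cells). In all members, dact1/2 replicate 2 and gpc4 replicate 3 had 0.20 as well. The number was therefore used as a block in an alternative fit. The main fits and the share tests between the mutants took the embryos as unpaired. The fits were tested on simulated data.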

Additional observations from a re-analysis of the deposited data

Results flagged for a closer look

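Among 27 measures of the 4 wildtype embryos in the cells without other markers, 7 had 1 embryo far from the rest (its gap to the nearest embryo as a share of the range passed Dixon's limit), where chance gives about 1 in 20. Wildtype replicate 1 was that embryo for col5a3a (0.854), cmn (0.850), hes6 (0.878) and hspb1 (0.908). The other 3 rested on 1 or 2 UMIs in a single embryo, which gave a ratio of 1 for capn8, aga and gpx1b. The rate of 1 in 20 holds for a single measure chosen without its values. Here col5a3a, cmn and hes6 all differed with noto detection, and hes6 and cmn were in part named after their values were seen. The count of 7 is therefore no test against chance. The cause was not tested.

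Interaction tests compared the effect of genotype between notochord cells and all other cells. For dact1/2 mutants a difference was called at 31 of 2715 genes (1.14%) in the 262 cells and at none of 7059 in all members. For gpc4 mutants it was called at 11 of 6503 genes (0.169%) in all members and at none of 2447 in the 262 cells. With all 4 wildtype embryos the 31 became 3, and leaving out 1 embryo gave 0 to 120 in place of the 11. hes6 among the 31 and krt99 among the 11 had the smallest p.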

How the results depend on the processing

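Over all refits, named called genes kept their call 621 times, lost it 290 times and reversed 3 times, namely cdkn1ca (-0.23) and hspb1 (-0.26) in dact1/2 and hspb1 (-0.088) in gpc4 mutants with all 4 wildtype embryos. In all members, the dact1/2 count of 5 became 1 with all 4 wildtype embryos, 9 by DESeq2, 3 without TMM, 122 without a filter, 58 with the replicate block, 31 with at least 4 of the 6 genes, 65 without cells with other markers, 24 with cells thinned to at most 5000 UMIs and 240 with rule genes at 1000 CPM or more. The gpc4 count of 3 became 12 by DESeq2, 112 without a filter, 23 with the replicate block, 8 without cells with other markers, 106 when thinned and 10 at 1000 CPM. The count of 4 between the mutants became 1 in the fit of all 10 embryos, 16 by DESeq2, 1 without TMM, 103 without a filter, 21 with the block, 0 with at least 4 genes (82 genes at an unadjusted p under 0.05 in edgeR) and 1 when thinned.

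In the 262 cells, the dact1/2 count of 65 became 1 with all 4 wildtype embryos, 42 by DESeq2, 131 without a filter, 148 with the block and 240 at 1000 CPM. The gpc4 count of 8 became 1, 59 without a filter and 25 with the block, and the count of 5 between the mutants became 0 in the fit of all 10 embryos, 8 without TMM, 47 without a filter, 13 with the block and 3 at 1000 CPM. The interaction counts became 56 without a filter and 8 with at least 4 genes (dact1/2, from 0), 83 and 1 (gpc4, from 11), and in the 262 cells 3 with all 4 wildtype embryos and 73 without a filter (dact1/2, from 31) and 20 without a filter (gpc4, from 0). Against wildtype only 2 replicate numbers are shared and do not pair the embryos.

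Leaving out 1 embryo gave 3 to 20 calls (dact1/2), 1 to 96 (gpc4, 96 without gpc4 replicate 3) and 0 to 6 (between mutants) in all members, and 24 to 99, 3 to 27 and 0 to 81 (81 without gpc4 replicate 2) in the 262 cells. For interactions it gave 0 to 4 (dact1/2) and 0 to 120 (gpc4), and 4 to 54 and 0 to 7 in the 262 cells. The difference in share ranged from -1.45 to -0.33 (dact1/2), -1.70 to -0.55 (gpc4) and -0.20 to 0.95 (between mutants) percentage points in all members and from -1.02 to -0.37, -1.57 to -0.92 and 0.48 to 0.69 in the 262 cells, and the smallest exact permutation p over the alternatives run was 0.0857. Except where fewer genes or cells enter by construction, the cause was not tested. Depth limits the 262 cells, with 13 to 46 cells per embryo.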
